A study of Mus musculus with 3 samples.

Results

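The genes described here are 8 ligands that act on blood vessels or share the angiopoietin fold: the vascular endothelial growth factors Vegfa, Vegfb, Vegfc and Pgf, the angiopoietins Angpt1 and Angpt2, and the angiopoietin-like proteins Angptl2 and Angptl4. They were chosen by name, as every non-control spot of the array that carried 1 of these 8 gene symbols. This gave 9 probes on 10 spots, out of 55680 probes for 32275 named genes. Vegfa had 2 probes and each of the other ligands had 1.

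The study measured RNA of the posterior frontal suture of C57BL/6 mice, the midline fibrous joint between the frontal bones, which closes early in postnatal life in this species. The groups were Runx2+/+ mice at postnatal day 5 (P5 wild type), Runx2+/+ mice at postnatal day 7 (P7 wild type) and Runx2+/- mice at postnatal day 7, with no other allele or treatment named. Runx2 is the transcription factor that commits cells to the osteoblast lineage, and heterozygous mice keep 1 functional copy. Each group was hybridised to 1 one-colour Agilent array, and the labels state neither the number of mice behind an array nor which part of Runx2 the allele lacks. With 1 array per group, no difference below has a replicate check and none has a p-value.

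Vegfa is the main ligand that makes endothelial cells divide and sprout, through the receptors Kdr and Flt1, and in bone it is made by osteoblasts and hypertrophic chondrocytes, where it ties vessel ingrowth to ossification. Angiopoietins act on the receptor Tek: Angpt1 keeps vessels stable, whereas Angpt2, stored and released by endothelial cells, loosens them or acts as a weak agonist. The angiopoietin-like proteins have the same coiled-coil and fibrinogen-like layout but do not bind Tek. Angptl4 inhibits lipoprotein lipase and is a target of PPAR factors and of hypoxia, and Angptl2 is a secreted factor for which integrin α5β1 and the paired immunoglobulin-like receptor Pirb have been reported as receptors.

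The probe sequences show which stretch of each transcript was read. Each is written 5′ to 3′ as it stands in the scanner file, in lower case with no capitals. The first 30 bases are given of 8 probes.
Vegfa 3′ probe: cagatcggtgacagtcactagcttgtcctg
Vegfb: tgcttttatggccctgcttcacagggagaa
Vegfc: tctgtgtttattgaaccatgtggattactg
Pgf: tagaaactcacagactgaggaaccccaccc
Angpt1: catgtgtgtagcaatttgatacgcatagct
Angpt2: acctatcttgatggcttagtttttaatggc
Angptl2: tgtatgctcttagacagcacatcacacgtg
Angptl4: atggtgctgttgtaggtgctgtggatgcac

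On mm9 the Vegfa 3′ probe lay at chr17:46154387-46154446 on the minus strand, within the Vegfa gene as the array files name it. A further Vegfa probe, called the 5′ probe below, lay upstream of it. Its transcript position was 1833 bases lower, but the positions of the probes refer to different RefSeq transcripts of Vegfa. The 1833 bases are therefore not a distance along 1 transcript. The 3′ probe had a stop codon in every sense frame. Vegfb was read at chr19:7057245-7057304 (minus strand), Vegfc at chr8:55271533-55271592 (plus) and Pgf at chr12:86508335-86510337 (minus). Angpt1 was read at chr15:42256335-42256394 (minus), Angpt2 at chr8:18691458-18691517 (minus), Angptl2 at chr2:33102102-33102159 (plus) and Angptl4 at chr17:33911880-33911939 (minus). Exons and untranslated regions were not assigned, since an mm9 annotation was not used here. In the RefSeq annotation of GRCm38.p6, Angpt2 overlaps Mcph1, Angptl2 overlaps Ralgps1, Vegfc overlaps Gm33153 and Angpt1 overlaps Gm41313, whereas Vegfa, Vegfb, Pgf and Angptl4 overlap no other gene. RefSeq lists 10 curated transcripts for Vegfa and 1 for Angptl2.

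Start regions are shown for Vegfa, whose probes opposed each other, and for Angptl2, whose level differed most between the arrays. The RefSeq table (GRCm38.p6, 250 bases before to 50 after a start) held 7 windows for 5 of the 8 ligands, and Angpt1, Angpt2 and Angptl4 had no entry. Vegfa had 2 windows, at chr17:46032328-46032627 and chr17:46025114-46025413 on the minus strand, and Angptl2 had 1, at chr2:33215711-33216010 on the plus strand. Capitals mark the hypoxia-inducible factor core, ACGTG or GCGTG on either strand, and the Runx core, TGTGGT or TGCGGT on either strand; overlapping matches count separately, and none shown here overlap.
Vegfa window 1: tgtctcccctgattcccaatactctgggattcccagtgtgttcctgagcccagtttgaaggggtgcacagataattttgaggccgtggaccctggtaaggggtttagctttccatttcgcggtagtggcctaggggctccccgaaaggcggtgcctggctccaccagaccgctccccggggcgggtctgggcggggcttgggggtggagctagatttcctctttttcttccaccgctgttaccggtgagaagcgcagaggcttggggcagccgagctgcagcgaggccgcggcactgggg
Vegfa window 2: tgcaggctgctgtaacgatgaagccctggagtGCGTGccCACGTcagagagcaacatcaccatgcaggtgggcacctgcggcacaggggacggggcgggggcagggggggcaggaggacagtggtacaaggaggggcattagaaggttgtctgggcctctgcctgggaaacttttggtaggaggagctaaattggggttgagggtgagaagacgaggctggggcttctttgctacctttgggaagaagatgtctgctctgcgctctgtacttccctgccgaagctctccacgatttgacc
Angptl2 window: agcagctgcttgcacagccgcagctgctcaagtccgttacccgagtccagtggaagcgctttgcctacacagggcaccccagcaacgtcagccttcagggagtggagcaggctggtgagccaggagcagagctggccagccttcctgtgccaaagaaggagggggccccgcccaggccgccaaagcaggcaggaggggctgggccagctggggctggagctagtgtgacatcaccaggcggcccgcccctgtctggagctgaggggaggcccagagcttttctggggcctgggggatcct

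The second Vegfa window lies downstream of the first Vegfa start on the minus strand. It held 2 hypoxia-inducible factor cores, at -218 and -211 from its own start, and the first Vegfa window and the Angptl2 window held 0. A core of this kind occurred in 43.8% of 32851 windows of this length. The Runx core was found in 0 of these 3 windows and in 22.4% of all windows. The Sp1 GC box, GGGCGG on either strand, occurred 2 times in the first Vegfa window, 1 time in the second and 2 times in the Angptl2 window, and 35.7% of all windows held it. A match is a run of letters and not a measured site, and the arrays do not tell which start was in use.

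The arrays differed in brightness. Well above background were 22316 probes (40.1%) on the wild-type P5 array, 16257 (29.2%) on the wild-type P7 array and 26352 (47.3%) on the Runx2+/- array, and the quality call of the scanner software was "evaluate" for the wild-type P7 array. The array's 75th percentile of processed signal was 52.1, 22.8 and 124.3 intensity units in the same order, and it was subtracted on the log2 scale, so that a level below is a log2 value relative to that percentile. The only error is technical: among 190 probes with at least 5 spots, the SD of a log2 difference was 0.22 for age in wild type (P7 minus P5), 0.20 for Runx2+/- against P7 wild type and 0.14 for Runx2+/- against P5 wild type. It was 0.32, 0.29 and 0.18 among the 63 dimmest of them. Both differences that answer the study's questions, age in wild type and genotype at P7, rest on the same wild-type P7 array, so a value that is off on it moves them in opposite directions. Transcripts of the sex chromosomes also differed between the arrays. Xist had an intensity of 284 on the wild-type P5, 87.4 on the wild-type P7 and 14.5 on the Runx2+/- array, and the Y-linked Ddx3y had 28.4, 3.28 (not well above background) and 429. Sex composition therefore cannot be told apart from age or genotype.

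Runx2 itself read 271 on the wild-type P5, 62.4 on the wild-type P7 and 262 on the Runx2+/- array by its brightest probe, with differences of -0.92 for age and -0.38 for genotype. Its other probes did not pass the background filter on the wild-type P7 array. Since the labels do not say what the allele lacks, these values do not check the genotype label.

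All 9 ligand probes were well above background on all 3 arrays. The sutures were measured in bulk, so fewer cells of a type and less RNA per cell cannot be told apart. From P5 to P7 in wild type, Angptl2 was 4.33-fold higher and the other 7 ligands were less than 2-fold apart. Between the genotypes at P7, 0 of 8 ligands were 2-fold apart by their brightest probe, while Angpt2, Vegfb, Vegfa (3′ probe) and Angpt1 were each 1.69-fold to 1.87-fold higher on the Runx2+/- array. Against this, the Vegfa 5′ probe was 2.07-fold lower. Vegfc was level across the 3 arrays, within 0.03 log2 units.

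Of the 8 ligands, 1 was at least 2-fold higher and 0 were at least 2-fold lower at P7 than at P5 in wild type, where 6.32% of all 13496 genes with an order were 2-fold higher and 3.3% were 2-fold lower (9.62% either way). For genotype the counts were 0 and 0 of 8, where 5.38% of 13610 genes were 2-fold higher and 13.2% were 2-fold lower (18.6% either way). The ligands' median log2 difference was 0.13 for age, beside 0.05 over all genes, and 0.56 for genotype, beside 0.15. With 8 ligands these counts lie close to what the shares over all genes give. A comparison of the Runx2+/- array with the wild-type P5 array mixes age and genotype, and is given only because the wild-type P7 array was dim. There 3 of 8 ligands (Vegfa by its 3′ probe, Angpt2 and Angptl2) were 2-fold higher and 0 were 2-fold lower, beside 9.09% and 14.7% of 17147 genes (23.8% either way), and the ligands' median was 0.54 against 0.13. These calls depended on the setting: with normexp correction and median scaling the Vegfa 3′ probe was at 0.67 and Angptl2 at 0.45, with normexp correction and 75th percentile scaling Angptl2 was at 0.87, with cyclic loess Angpt2 was at 0.98, and the mean over both Vegfa probes was 0.01. The counts leave out the Vegfa 5′ probe. It was at -1.05 for genotype (2.07-fold lower) and at -1.46 for Runx2+/- against P5 wild type (2.75-fold lower).

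**Figure D1:**
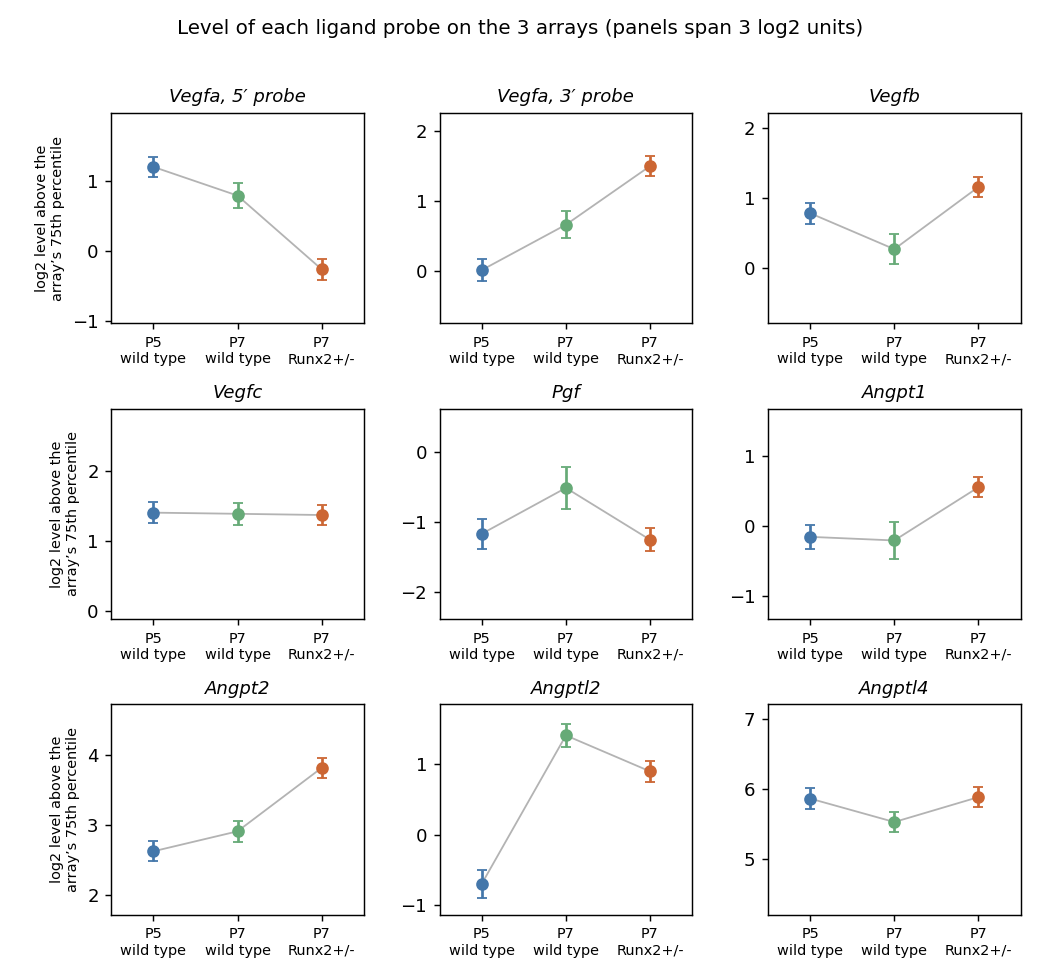
Level of each ligand probe on the 3 arrays, as a log2 value relative to the 75th percentile of its array (vertical axis), each panel spanning 3 log2 units, with 1 array per point and bars giving the scanner software's error of that value; the lines only join the points of a probe. Angptl2 stands lowest at P5, the Vegfa probes run in opposite directions, and Vegfc is flat.

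Vegfa was read by both probes, and they disagreed. The 5′ probe had an intensity of 120 on the wild-type P5, 39.5 on the wild-type P7 and 104 on the Runx2+/- array, which are levels of 1.20, 0.80 and -0.26. It was therefore highest at P5 and lowest in Runx2+/-. The 3′ probe, the mean of 2 spots, had intensities of 52.7, 36.1 and 351.6, or levels of 0.02, 0.66 and 1.5, and so ran in the reverse order. Its 2 spots read 54.5 and 50.9 on the wild-type P5, 36.9 and 35.2 on the wild-type P7 and 363.3 and 340.3 on the Runx2+/- array, so the spots of the 3′ probe were close to each other on every array.

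From P5 to P7 in wild type the Vegfa 5′ probe was lower by 0.41 log2 units (difference -0.41) and the 3′ probe was higher by 0.65. On the Runx2+/- array, relative to P7 wild type, the 5′ probe had a difference of -1.05 (2.07-fold lower) and the 3′ probe a difference of 0.84 (1.79-fold higher). All 4 of these differences exceeded the spot SD of their comparison. The genotype difference of the 5′ probe was -0.44 with normexp correction and 75th percentile scaling, which is less than 2-fold, and that of the 3′ probe was 0.19 with normexp correction and median scaling. The mean over both probes was 0.12 for age and -0.11 for genotype, so a single value for Vegfa depends on the probe taken.

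The gap between the Vegfa probes was 1.06 log2 units for age and 1.89 for genotype. Among 2351 genes with several probes measured on both wild-type arrays, the median gap was 0.39 and 12.0% had a gap at least as wide as that of Vegfa. For genotype the median gap was 0.44 over 2362 genes, and 4.74% had one at least as wide. Probes of opposite sign were common, at 41.2% of such genes for age and 35.2% for genotype.

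Differences were in general higher towards the 3′ end of transcripts. The median slope was 0.17 log2 units per kb over 1130 transcripts for age and 0.13 over 1136 for genotype, and the slope between the Vegfa probes was 0.58 and 1.03. Runx2+/- against P5 wild type gave a median slope of 0.35 over 1911 transcripts and 1.61 for Vegfa. The slopes of Vegfa had the sign of the general slope and were steeper as computed. They divide by the 1833 bases between positions on different transcripts, so their steepness is approximate. Whether RNA quality, the use of different transcripts or start sites, or the labelling had a part in the Vegfa gap was not tested.

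Vegfb, a ligand of Flt1 linked to fatty acid handling and vessel survival, had intensities of 89.8, 27.5 and 277.9 on the wild-type P5, wild-type P7 and Runx2+/- arrays, or levels of 0.79, 0.27 and 1.16. It was lowest at P7 in wild type and highest in Runx2+/-. The wild-type P7 signal was 2.07 times the lowest value that counted as well above background. The log2 difference was -0.51 for age and 0.89 for genotype (1.85-fold higher), both beyond the spot SD. With normexp background correction and median scaling the genotype difference was 0.16. Only 6.71% of 12155 genes measured on both P7 arrays had a higher genotype difference than Vegfb.

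Vegfc, the ligand of Flt4 that drives the growth of lymphatic vessels, had intensities of 138, 59.7 and 322 and levels of 1.41, 1.39 and 1.37. Its differences were -0.02 for age and -0.02 for genotype, less than the spot SD. Normexp correction with 75th percentile scaling gave 0.57 for genotype, a setting that raised the median of all genes by 0.56. Relative to that median, the genotype difference of Vegfc lay between -0.22 and -0.10 over the alternatives.

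Pgf, placental growth factor, which binds Flt1, was the ligand nearest to background, with intensities of 23.2, 15.95 and 52.2. On the wild-type P7 array its signal was 1.20 times the lowest value that counted as well above background. Its levels were -1.17, -0.51 and -1.25, highest at P7 in wild type. The log2 difference was 0.65 for age and -0.74 for genotype, and -0.09 between the Runx2+/- and the wild-type P5 array. Both larger differences rest on the near-background wild-type P7 value, with a scanner error of 0.37 and 0.34 log2 units.

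Angpt1, the agonist of Tek made by pericytes and other mesenchymal cells, had intensities of 46.9, 19.8 and 182.9 and levels of -0.15, -0.20 and 0.56. The wild-type arrays were alike, with an age difference of -0.05, and the Runx2+/- array was higher by 0.76 than P7 wild type (1.69-fold) and by 0.71 than P5 wild type. Its wild-type P7 signal was 1.49 times the lowest value that counted as well above background. The genotype difference turned to -0.27 when normexp correction and median scaling were applied together; it was 0.44 with normexp correction and 75th percentile scaling and 0.66 with median scaling alone.

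Angpt2, the ligand stored in endothelial cells, had intensities of 320.9 on the wild-type P5, 170.8 on the wild-type P7 and 1747 on the Runx2+/- array. Its levels were 2.62, 2.91 and 3.81, highest in Runx2+/-. The log2 difference was 0.28 for age, 0.90 for genotype (1.87-fold higher) and 1.19 between Runx2+/- and P5 wild type (2.28-fold higher). The last 2 were more than 4 times the spot SD. Under 8 other settings the genotype difference lay between 0.72 and 1.81 and kept its sign in 8 of 8, and it was at least 2-fold in 2 of them. The age difference was -0.29 with normexp correction and 75th percentile scaling.

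**Figure D2:**
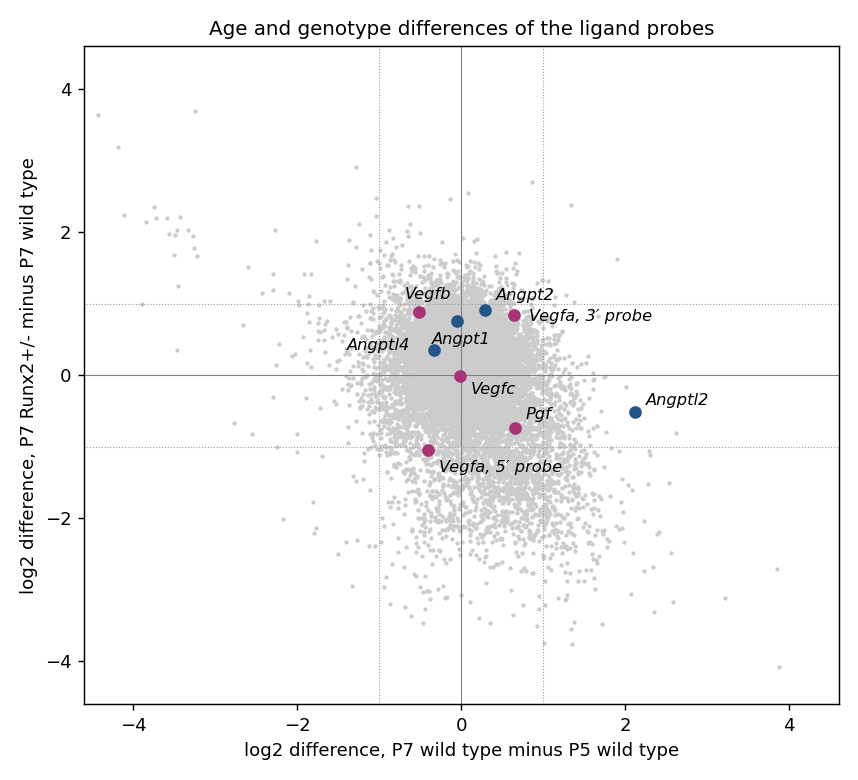
Log2 difference for age in wild type (horizontal axis) against the log2 difference for genotype at P7 (vertical axis) for the ligand probes, with growth factors of the Vegf family in purple and angiopoietins and angiopoietin-like ligands in blue, over all genes well above background on the 3 arrays in grey. Dotted lines mark 2-fold; Angptl2 lies beyond the line for age at 2.12, the Vegfa 5′ probe lies beyond the line for genotype at -1.05, and both axes share the wild-type P7 array.

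Angptl2 showed the widest span of the ligands. Its intensity was 32.0 on the wild-type P5, 60.6 on the wild-type P7 and 232.0 on the Runx2+/- array, or levels of -0.70, 1.41 and 0.90. The wild-type P5 signal was dim, at 2.67 times the lowest value that counted as well above background. Both P7 arrays were above the P5 array, whatever the genotype. The age difference was 2.12 log2 units (4.33-fold higher), the difference of Runx2+/- from P5 wild type was 1.60 (3.04-fold higher), and the genotype difference was -0.51. Only 19 of 12112 genes measured on both wild-type arrays had a higher age difference. Osteoclast and chondrocyte markers were also higher at P7 in wild type: 5 of 5 osteoclast markers with an order lay above 0 (3 of them 2-fold higher, median 1.1), and 4 of 4 chondrocyte markers did (2 of them 2-fold higher, median 0.94). Their summed scaled levels on the wild-type P5, wild-type P7 and Runx2+/- arrays were 150, 305 and 136 for osteoclasts and 15.3, 26.9 and 32.5 for chondrocytes. Of the hypertrophic chondrocyte markers with an order, 2 of 2 lay above 0 (1 of them 2-fold higher, median 0.90). Of 9 osteoblast markers, 7 lay above 0 (0 of them 2-fold higher, median 0.49), while neutrophil markers were mostly lower (median -3.64). The part of these cell types in the Angptl2 values was not tested.

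The age difference of Angptl2 kept its sign under 8 of 8 other settings, between 0.81 and 2.35, and was at least 2-fold in 7. The lowest value came from normexp correction with 75th percentile scaling, which lowered the median of all genes by 0.34, and relative to that median it was 1.06. The genotype difference was 0.06 under the same setting. The genes nearest to Angptl2 in their pair of differences were 5031434O11Rik at a distance of 0.37 log2 units, Dtx3 at 0.41 and Oxt at 0.46, among 12081 genes well above background on all arrays. None lay within 0.25, a count of 0, whereas 162 genes lay within 0.25 of the Vegfa 3′ probe, the nearest being Trim11 at 0.02, Shank3 at 0.03 and Wwtr1 at 0.03. Likeness here is over 3 arrays and describes the values only.

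Angptl4, the lipoprotein lipase inhibitor, had intensities of 3031 on the wild-type P5, 1051 on the wild-type P7 and 7342 on the Runx2+/- array. Its levels were 5.86, 5.53 and 5.88, so that the wild-type P5 and Runx2+/- arrays were alike and the wild-type P7 array was slightly lower. The log2 difference was -0.33 for age and 0.36 for genotype, each less than 2-fold. Normexp correction with 75th percentile scaling gave -1.04 and 1.55, which relative to the median of all genes were -0.79 and 0.88.

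**Figure D3:**
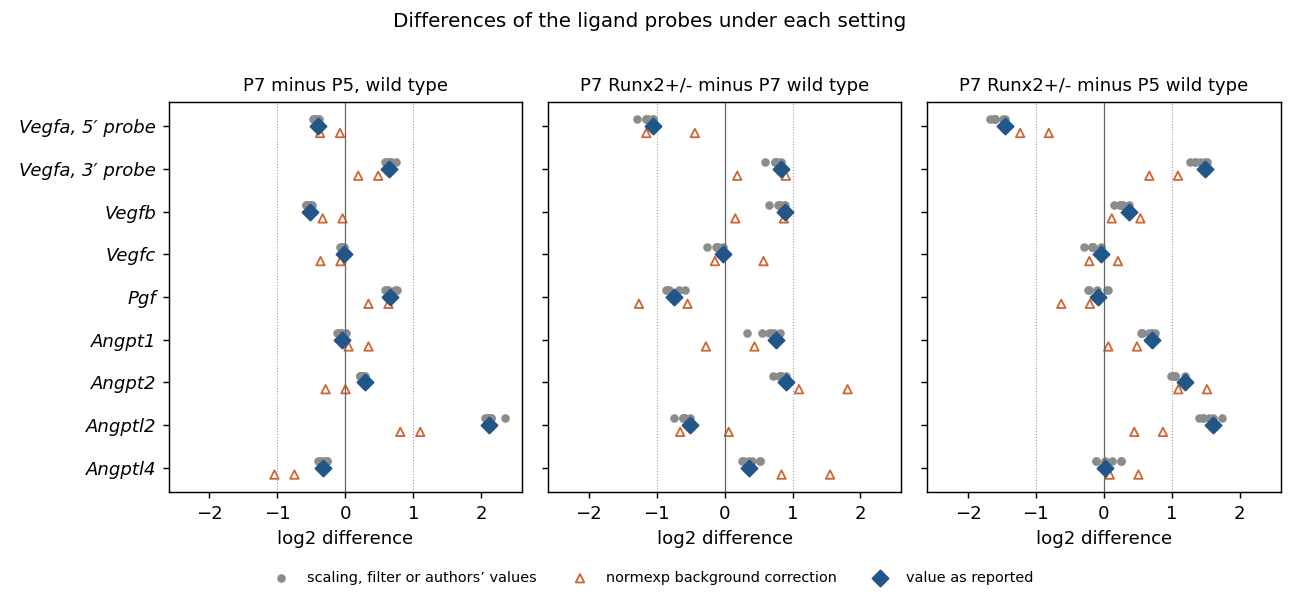
Log2 difference of each ligand probe (horizontal axis) for age, for genotype and for Runx2+/- against P5 wild type, with diamonds for the values reported here, grey points for other scaling, filters or the authors' values, and open triangles for normexp background correction; dotted lines mark 2-fold. For age, Angptl2, Pgf and the Vegfa 3′ probe stay to the right of 0 in every setting shown. For genotype, Angpt2, Vegfb, Angptl4 and the Vegfa 3′ probe do so.

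The receptors of the Vegf family had no common direction. For age, 1 of 5 was at least 2-fold higher and 0 were 2-fold lower, with a median of -0.04. For genotype, 1 was 2-fold higher and 2 were 2-fold lower, with a median of 0.04. Flt1, the receptor for Vegfa, Vegfb and Pgf, had intensities of 415, 129.9 and 1572 on the wild-type P5, wild-type P7 and Runx2+/- arrays, and differences of -0.48 for age and 1.15 for genotype (2.22-fold higher). A further Flt1 probe gave -0.34 and 1.38, so these Flt1 probes had the same direction.

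Kdr, the main signalling receptor for Vegfa, had opposite probes, as Vegfa did. Its brightest probe read 2316, 1195 and 1667, with differences of 0.24 for age and -1.97 for genotype, and its other probe read 307.7, 70.7 and 1413, with -0.93 and 1.87. No direction can be given for Kdr. Flt4, the receptor for Vegfc, was not well above background on the wild-type P5 array and read 36.8 on the wild-type P7 and 13.5 on the Runx2+/- array. It was at least 7.03-fold higher at P7 than at P5 in wild type and 14.9-fold lower in Runx2+/-, where its signal was close to background. The neuropilins are co-receptors: Nrp2 had differences of -0.04 and 0.04, although a further probe gave -1.04 for genotype, and Nrp1 was at least 1.85-fold higher in Runx2+/- than in P7 wild type, where it was not well above background.

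Of the angiopoietin receptors, Tek, which binds both angiopoietins, had intensities of 25.6 on the wild-type P5, 11.5 (not well above background) on the wild-type P7 and 166.7 on the Runx2+/- array. It was at least 2.30-fold higher in Runx2+/- than in P7 wild type and 1.45 log2 units higher than in P5 wild type. Tie1, the orphan partner of Tek, read 121, 93.8 and 495, with differences of 0.83 for age and -0.05 for genotype. Tek and Angpt2 were thus both highest on the Runx2+/- array, and Tie1 was level between the P7 arrays.

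Among 4 genes listed beside Angptl2 as receptors, 0 were 2-fold higher and 2 were 2-fold lower for age, with a median of -1.03. For genotype 2 were 2-fold higher and 0 lower, with a median of 0.82. The members past 2-fold were Pirb (-1.85 for age and 1.11 for genotype) and Lilrb4a (-1.28 and 1.78), both inhibitory receptors of myeloid cells. Lilrb4a is not among the receptors of Angptl2 named at the start, and the counts and medians of this list include it. The integrin subunit Itga5 had differences of 0.97 and -0.79, and Itgb1 had -0.78 and 0.53. Markers of neutrophils differed in the same directions as Pirb and Lilrb4a. Of 8 markers, 0 were 2-fold higher and 6 were 2-fold lower for age, with a median of -3.64, and 6 were 2-fold higher and 1 was lower for genotype, with a median of 2.27. Their summed scaled level was 881 on the wild-type P5, 77.2 on the wild-type P7 and 350 on the Runx2+/- array, and their part in the receptor values was not tested. Angptl2 differed in the direction opposite to the neutrophil markers for age. Macrophage markers did not follow the 2 receptors for age. Of 5, 3 lay above 0 for age, with 1 at least 2-fold higher, 1 lower and a median of 0.15. For genotype 4 lay above 0, with 2 higher, 1 lower and a median of 0.73.

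Other members of the ligand families were mostly dim. Of 6 with a probe, 2 had an order for age, with 0 past 2-fold and a median of -0.25, and 3 had an order for genotype, with 1 higher, 0 lower and a median of 0.26. Angptl1, a relative of Angptl2, had intensities of 56.9 on the wild-type P5, 16.1 on the wild-type P7 and 378 on the Runx2+/- array, with differences of -0.63 and 2.11 (4.31-fold higher in Runx2+/-). Its wild-type P7 signal was near background. Angptl6 had differences of 0.14 and -0.38. Vegfd was 1.49 log2 units higher in Runx2+/- than in P5 wild type and was not well above background on the wild-type P7 array. Angpt4 was well above background on the Runx2+/- array only, and Angptl7 failed that filter on all arrays.

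The partners of Angptl4 in lipid uptake were measured beside it. Of 6 genes that handle lipoprotein lipase, 3 had an order, with 0 past 2-fold and a median of 0.34 for age, and 1 higher, 0 lower and a median of 0.82 for genotype. Gpihbp1, which anchors lipoprotein lipase on capillary endothelium, read 626.8, 373 and 4129, with differences of 0.45 for age and 1.02 for genotype. Lpl, the enzyme itself, had differences of 0.06 and 0.82, and a further Lpl probe gave -0.88 and 1.11. Of the PPAR family and its targets, 8 of 11 had an order for age, with 0 past 2-fold in either direction and a median of -0.16. For genotype 9 had an order, with 3 higher, 1 lower and a median of 0.39. The 3 higher genes were Cd36 (1.79), Pparg (1.69) and the fatty acid carrier Fabp4 (1.31), and the lower one was Ppara (-1.35). These 3 were lower at P7 than at P5 in wild type by less than 2-fold, with differences of -0.80, -0.84 and -0.83. The adipocyte markers Adipoq, Plin1, Lep and Cidec failed the background filter on all 3 arrays.

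The hypoxia response includes the factors that induce Vegfa and Angptl4 and other genes that they induce, and most of these lay within 2-fold. Of 12 hypoxia-induced genes, 9 had an order for age, with 0 past 2-fold and a median of 0.05, and 9 for genotype, with 1 higher, 0 lower and a median of 0.31. The 1 gene was the glucose transporter Slc2a1, at least 2.504-fold higher in Runx2+/- than on the wild-type P7 array, where it was not well above background. Ndrg1 had differences of -0.03 and 0.91, Pdk1 had 0.05 and 0.80, and Ankrd37 had 0.89 and -0.997. Of 8 HIF factors and hydroxylases, 5 had an order for age, with a median of 0.15, and 6 for genotype, with a median of 0.38. None was past 2-fold, a count of 0 in both comparisons. Hif1a had differences of -0.16 and 0.79. Epas1 had 0.19 and 0.46 by its brightest probe, and another Epas1 probe gave 1.64 and -1.98.

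Inhibitors of angiogenesis and genes of Notch signalling and sprouting were mixed. Of 7 inhibitors, 6 had an order for age, with 1 higher, 0 lower and a median of 0.29, and 7 for genotype, with 2 higher, 2 lower and a median of 0.21. Thbs1, which binds Cd36 on endothelium, was 1.66 log2 units higher in Runx2+/- than in P7 wild type, and Cnmd, a cartilage product, was at least 5.14-fold higher. Vash1 was lower by 2.25 (difference -2.25), and Serpinf1 had differences of 1.03 for age and -1.02 for genotype by its brightest probe. A further Serpinf1 probe gave 0.57 and 0.42, so no genotype direction can be given for Serpinf1. Of 8 sprouting genes, 6 had an order for age, with 0 past 2-fold and a median of -0.03, and 6 for genotype, with 2 higher, 1 lower and a median of 0.44. The tip cell genes Apln and Esm1 were higher in Runx2+/-, Apln at least 4.73-fold and Esm1 by 1.51 log2 units, and Notch1 was lower, with a difference of -1.73.

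Cell type markers were set beside the ligands. Of 12 endothelial markers, 0 were past 2-fold for age, with a median of 0.00. For genotype 4 were higher and 0 lower, with a median of 0.69, and 11 of 12 lay above 0. Their summed scaled level was 161 on the wild-type P5, 147 on the wild-type P7 and 312 on the Runx2+/- array. The 4 past 2-fold were Robo4 (1.94), Emcn (1.61), Egfl7 (1.61) and Cdh5 (1.51), while Pecam1 had -0.15. Angpt2, Flt1, Tek, Esm1, Apln and Gpihbp1, which endothelial cells make, were higher in Runx2+/- along with these markers. Other endothelial genes of the same lists were not: Tie1 was level (-0.05), and Flt4 (-3.90), Notch1 (-1.73) and the brightest Kdr probe (-1.97) were lower. The other Kdr probe was higher (1.87), and the Flt4 signal on the Runx2+/- array was close to background. The part of endothelial RNA in these values was not tested. Of 3 lymphatic markers, 0 were well above background on either wild-type array and 1 was so on the Runx2+/- array.

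Of 8 pericyte and smooth muscle markers, 1 of 7 with an order was 2-fold higher for age, and for genotype 1 was higher and 1 was lower, with a median of 0.35. Their summed level was 241, 243 and 156, a sum that weighs the brightest markers most. Acta2, the brightest, had a genotype difference of -0.97, while 5 of 8 markers lay above 0. All 9 osteoblast markers were well above background on every array. For age 0 were past 2-fold, with a median of 0.49, and for genotype 0 were higher and 7 were lower, with a median of -1.90. Their summed level was 889 on the wild-type P5, 1337 on the wild-type P7 and 268 on the Runx2+/- array. For genotype, 5 of 5 osteoclast markers with an order also lay below 0 (4 of them 2-fold lower, median -2.74). So did 2 of 2 hypertrophic chondrocyte markers with an order, Mmp13 and Ihh (1 of them 2-fold lower, median -1.87), while Col10a1 failed the background filter on every array. The Vegfa 5′ probe, Pgf and Angptl2 (-0.51) were lower in Runx2+/- along with the osteoblast and osteoclast markers, Mmp13 and Ihh. Vegfc was level, and Angpt2, Vegfb, Angpt1, Angptl4 and the Vegfa 3′ probe were higher. Chondrocyte markers were mixed for genotype. Of 6 with an order, 4 lay above 0, with 2 at least 2-fold higher, 1 at least 2-fold lower and a median of 0.50. The part of RNA from these cell types in any ligand value was not tested.

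**Figure D4:**
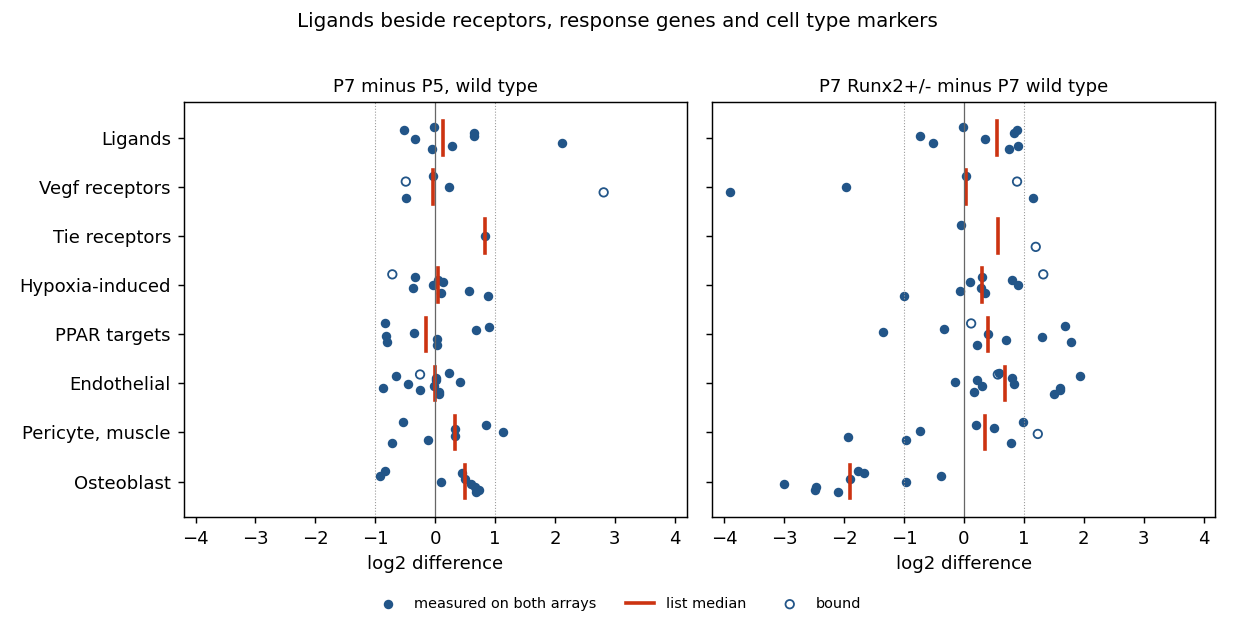
Log2 difference of each gene (horizontal axis) for age in wild type and for genotype at P7, in the ligands, their receptors, response genes and cell type markers, by the brightest probe of each gene. Filled points were measured on both arrays, open points are lower bounds, red bars are list medians and dotted lines mark 2-fold; osteoblast markers lie to the left of 0 and endothelial markers mostly to the right for genotype, where the ligands stay within 2-fold, and Angptl2 lies beyond 2-fold for age.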

How the data were processed

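Suture RNA was amplified, labelled with Cy3 and read on 3 one-colour arrays, per the labels' protocols. The authors deposited scanner output whose processed signal is a linear intensity already corrected for background, per the file headers. The file headers name Feature Extraction 10.7.1.1 and the submitters' processing notes name 9.5.1.1. A deposited table of the authors' processed intensity values had column medians of 12.59 and rank correlations of 0.99999, 0.9999 and 0.99997 with the scanner values; its scale was linear, the sources used here give neither its steps nor its centring, and it served as an alternative.

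Control spots and 402 outlier spots were left out, spots of a probe were averaged as log2 values, and each array's 75th percentile was subtracted (Python 3.11.15, pandas 2.3.3). Names came from RefSeq accessions for 27234 probes, and 2744 probes carry only an identifier. Levels below background were floored at the lowest value well above background, at -2.12, -0.78 and -3.25 log2 units; a gene above background on 1 array gave a lower bound if that array was the higher, and otherwise no order. A gene took its brightest probe by the mean level over the 3 arrays, and 2-fold was counted. The number of arrays and the signal over background limit the precision. No spot was saturated. The steps were tested on simulated data. Alternatives used quantile and cyclic loess normalization and normexp correction (limma 3.58.1, offset 50), 2 other scalings, filters, floors, probe choices, the authors' values and folds of 1.5 and 3. The ligands, gene lists and marker lists were chosen with earlier results of these data known. The genes named are all ligands, up to 4 per list furthest from 0, and the 3 nearest in pattern to the 2 ligands with the widest range; further probes of a gene and other list entries were named with their values in view. Some items are not reported here.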

Additional observations from a re-analysis of the deposited data

How the results depend on the processing

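No paired analysis was possible because each group has 1 array, and for the same reason no array could be left out of a group. The ligands' median difference for age (0.13) became -0.12 with normexp correction and 75th percentile scaling. For genotype (0.56) it became 0.0079 with normexp and median scaling, 0.36 with a stricter filter on dim probes and 0.17 with the mean over probes. For Runx2+/- against P5 wild type (0.54) it was 0.40 with the 75th percentile and 0.40 with the median of probes above background on all arrays, 0.35 with cyclic loess, 0.10 with normexp and median scaling, 0.71 with the stricter filter and 0.20 with the mean over probes. Over all genes, 853 were 2-fold higher for age, and 28 with normexp and 75th percentile scaling, 140 with normexp and median scaling, 524 with the stricter filter, 2215 at 1.5-fold and 299 at 3-fold. The 445 lower genes became 776 and 236 with these normexp settings, 1377 with no floor, 235 with the stricter filter, 1503 at 1.5-fold and 121 at 3-fold. For genotype, 732 higher genes became 4063 and 460 with normexp, 1685 with no floor, 450 with the stricter filter, 2758 at 1.5-fold and 102 at 3-fold, and 1802 lower genes became 484 with normexp and 75th percentile scaling, 2767 at 1.5-fold and 946 at 3-fold. For Runx2+/- against P5 wild type, 1558 higher genes became 1013 and 1020 with the 75th percentile and the median of probes above background on all arrays, 307 with normexp and median scaling, 2563 with no floor, 4311 at 1.5-fold and 231 at 3-fold, and 2527 lower genes became 607 with normexp and 75th percentile scaling, 4137 at 1.5-fold and 1039 at 3-fold. The higher share of the calls was 65.7% for age, 28.9% for genotype and 38.1% for Runx2+/- against P5 wild type. It was 3.48%, 89.4% and 72.2% with normexp and 75th percentile scaling, which moved the median of all genes by -0.34, 0.56 and 0.11. It was 37.2%, 19.1% and 10.3% with normexp and median scaling, and 39.3%, 41.2% and 50.2% with no floor. Dim probes limit Pgf and Angpt1 most. The causes were not tested.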
